A study of Mus musculus with 12 samples.

Results

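The comparison described here set tumours whose cancer cells carried MAVS again against tumours whose cancer cells lacked it, in mice that received no inhibitor. It used 6 of the 12 libraries of the series, 3 MAVS reconstituted control libraries against 3 MAVS knockout control libraries, taken by the column names of the deposited count table. The tumours were subcutaneous flank tumours of 393P, a mouse lung cancer line, in 8-week-old male 129S2/SvPasCrl mice. Titles name the knockout groups Luc, a word the labels do not explain, nor do they describe the vehicle of the control groups. The remaining 6 libraries came from tumours of the same 2 cell populations in mice given the MPS1 inhibitor BAY-1217389 at 5 mg/kg, 2 times daily for 2 days, with harvest on the following day. They entered the same model so that the spread per gene rested on 4 groups, and they gave the test of whether a MAVS difference was the same under the inhibitor.

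MAVS is the adaptor on the outer mitochondrial membrane to which the cytosolic RNA sensors RIG-I (gene Ddx58) and MDA5 (Ifih1) couple. Once engaged it activates the kinases TBK1 and IKK-epsilon, which switch on IRF3 and IRF7, and in another arm it activates NF-kB. These factors switch on the genes of type I interferon and inflammatory cytokines. Secreted interferon then acts through its receptor on the same and on neighbouring cells, where many antiviral genes carry the interferon-stimulated response element (ISRE) in their promoters.

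Knockout and reconstituted tumours grew from different injected cells, and other differences between those cells cannot be told apart from MAVS. The labels call the samples replicates without naming separate animals, and the p-values therefore measure the spread between these samples, which may be technical. Total counts of the control libraries ran from 52983715 to 69108411. Levels are in CPM (counts per 1000000, after TMM scaling by factors of 0.962 to 1.03), on which 3 counts stand at 0.0422 to 0.0571. Of 45777 genes in the table, 17885 passed the filter on low counts and were tested. The first 2 principal components of the controls held 28.6% and 27.3% of the variance. Knockout libraries lay at -28.2, -54.5 and -5.19 on the first component and reconstituted libraries at 41.2, 18.9 and 27.8, without overlap, while the second component spread the libraries within both groups. In the text below, values of 3 libraries follow the order of replicates 1, 2 and 3.

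Mavs itself lies on chromosome 2 from 131234063 to 131248025 (GRCm38.p6, gene ID 228607). Its level was 40.5, 42.5 and 45.7 CPM in knockout controls and 85.1, 68.9 and 59.1 CPM in reconstituted controls. All reconstituted control libraries lay above all knockout ones. The log2 difference was 0.73 ± 0.13 (SE), with an edgeR adjusted p of 0.0644, so Mavs did not pass the threshold of 0.05 in controls alone. Under the inhibitor, Mavs was at 43.5, 39.4 and 41.0 CPM in knockout libraries and 50.1, 53.8 and 62.8 CPM in reconstituted ones. Reads from the disrupted gene, from the reintroduced copy and from host cells are all in 1 count per library, and Mavs reads were counted in every knockout library. Interferon beta (Ifnb1) had 0 counts in all 6 control libraries. Interferon lambda 3 (Ifnl3) had 2 counts in reconstituted control replicate 1 and 0 in the other five.

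Tumours with MAVS had higher levels of antiviral interferon-stimulated genes, such as Samd9l at 4.37 times and Oas1g at 9.29 times the knockout level, and of the clock gene Per1. They had lower levels of the early response gene Ier3, the epithelial protease gene Prss22, the granulocyte growth factor gene Csf3 and the repressor gene Tgif1. In all, 21 genes were called higher, 0.117% of those tested, and 4 lower, 0.0224% (edgeR quasi-likelihood test, Benjamini-Hochberg adjusted p below 0.05, smallest adjusted p = 0.00778). In each of the 25 the 3 libraries of one group lay above the 3 of the other, which was also so for 15.6% of all genes in the higher and 15.5% in the lower direction. The median log2 difference over all genes tested was 0.003, with quartiles of -0.23 and 0.21. The RNA is of bulk tumour tissue, so fewer cells of a type and less RNA per cell cannot be told apart in any of these differences.

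The count of called genes rested on single libraries. Without knockout control replicate 2 edgeR called 0 genes, with 2322 genes at an unadjusted p below 0.05, and Samd9l had an adjusted p of 0.0632 at a log2 difference of 1.97. Leaving out another control library left 9 to 15 calls, and leaving out a knockout inhibitor library 10 to 13. Without reconstituted inhibitor replicate 1 or 3, which only inform the spread here, 54 and 80 genes were called, the 25 among them. Over all fits with a library left out, the log2 difference was between 1.97 and 2.26 for Samd9l, 3.0 and 3.58 for Oas1g, 3.07 and 4.15 for Ifit3b, -1.89 and -1.61 for Ier3 and 1.20 and 1.56 for Per1.

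**Figure D1:**
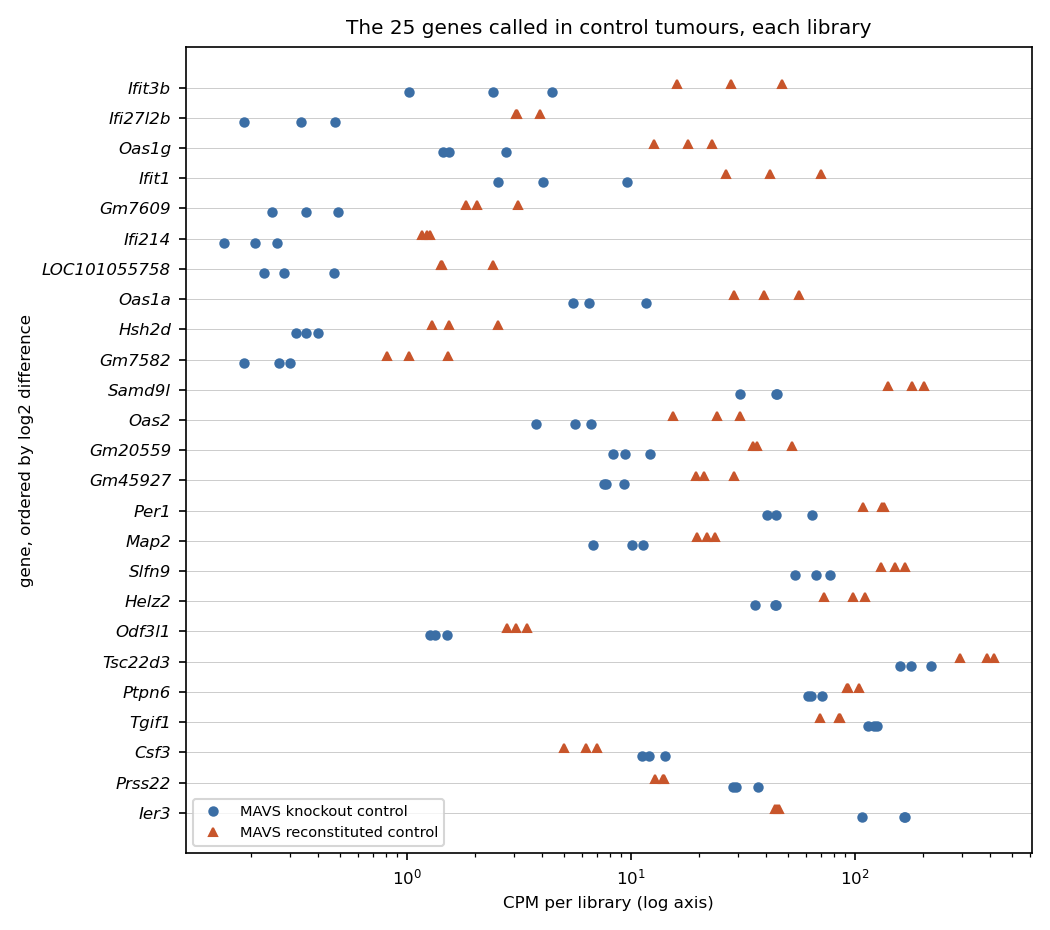
Each point is the CPM of 1 control library (log axis) for the 25 called genes, ordered by log2 difference, with 3 MAVS knockout (circles) and 3 MAVS reconstituted libraries (triangles) per gene. The 21 genes from Ifit3b to Ptpn6 have all triangles to the right of all circles, and the 4 genes from Tgif1 to Ier3 the reverse.

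Of the 21 genes that rose, 9 belong to the list of 61 type I interferon-stimulated genes. Samd9l, an interferon-induced antiviral restriction factor, was at 44.3, 30.6 and 44.6 CPM in knockout and at 179, 139 and 203 CPM in reconstituted controls. Its groups were far apart, and the log2 difference of 2.13 ± 0.21 (SE) had an adjusted p of 0.00778, the smallest of all genes together with Gm20559. Gm20559 lies beside Samd9l on chromosome 6 (3330738 to 3346141, Samd9l 3372257 to 3399571, GRCm38.p6) and was at 12.2, 8.26 and 9.42 CPM against 34.8, 36.5 and 52.1 CPM, a log2 difference of 2.05 ± 0.21 (SE). The oligoadenylate synthetases make the small RNA that activates the nuclease RNase L. Oas1g was at 2.76, 1.53 and 1.44 CPM in knockout and 17.8, 12.6 and 22.8 CPM in reconstituted controls, with a log2 difference of 3.22 ± 0.37 (SE, adjusted p = 0.0137). Oas1a rose from 11.6, 6.49 and 5.50 to 39.0, 28.6 and 56.0 CPM (log2 difference 2.39) and Oas2 from 6.63, 5.62 and 3.75 to 24.0, 15.4 and 30.4 CPM (2.12). The lowest reconstituted library was replicate 2 for each of these 3 synthetases.

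The largest differences among the called genes were in the Ifit and Ifi27 families. Ifit3b rose from 4.44, 1.01 and 2.42 to 27.9, 16.1 and 47.3 CPM, a log2 difference of 3.54 ± 0.56 (SE, adjusted p = 0.0466). Ifit1, whose product binds the ends of foreign RNA, rose from 9.60, 2.53 and 4.03 to 41.5, 26.4 and 70.3 CPM, a log2 difference of 3.10 ± 0.50 (SE, adjusted p = 0.0482). Knockout replicate 2 was the lowest and reconstituted replicate 3 the highest library for both, with groups that did not overlap. Ifi27l2b, a small membrane protein of the Ifi27 family, was at 0.476, 0.186 and 0.336 CPM in knockout and at 3.05, 3.10 and 3.92 CPM in reconstituted controls (log2 difference 3.34). Slfn9, of the schlafen family, went from 76.7, 54.0 and 66.5 to 167, 131 and 150 CPM (1.18), and the helicase gene Helz2 from 44.0, 35.7 and 44.4 to 98.0, 72.3 and 111 CPM (1.18). The Ifit and Oas1 genes have near-identical neighbours, Ifit1 and Ifit3b both overlap Ifit1bl1, and the labels do not say whether the counting used strand, so the split between such genes is uncertain.

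Interferon is known to act through the ISRE, so the promoters of the genes that rose were searched for its letters. Promoters of 300 bases (250 before to 50 after the start site, RefSeq, GRCm38.p6) were available for 17 of the 21 genes called higher, and both strands were read for the ISRE core, written as GAAA, then any 2 bases, then GAAA. It was found in 6 of 17 (35.3%), against 3.86% of the 12990 promoters of all genes tested and 23 of 45 (51.1%) of the interferon-stimulated list. A match is a description of letters, not a shown binding site. The windows of 5 of these genes are printed because they belong to genes that rose with MAVS, each from 40 bases before its first match to 40 after its last or to the base before the start site used, whichever came first, on the gene's strand, with the matches in capitals (matches on the opposite strand appear as the reverse complement, TTTC then 2 bases then TTTC). Ifit3b also had 2 matches, but its whole window lies inside the annotated gene, and it is not shown.
Oas1g (chr5:120887614-120887671, minus strand): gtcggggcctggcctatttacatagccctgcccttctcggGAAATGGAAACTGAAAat
Oas1a (chr5:120907526-120907585, minus strand): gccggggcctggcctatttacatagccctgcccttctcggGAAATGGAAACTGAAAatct
Ifit1 (chr19:34640745-34640853, plus strand): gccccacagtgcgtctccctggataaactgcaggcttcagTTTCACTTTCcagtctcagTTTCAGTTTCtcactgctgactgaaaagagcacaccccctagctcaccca
Ifi214 (chr1:173535987-173536076, minus strand): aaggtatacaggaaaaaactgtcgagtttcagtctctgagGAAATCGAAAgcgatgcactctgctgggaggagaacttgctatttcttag
Slfn9 (chr11:82991831-82991915, minus strand): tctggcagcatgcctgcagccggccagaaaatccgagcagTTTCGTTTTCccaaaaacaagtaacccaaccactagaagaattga
Oas1g and Oas1a each held 2 overlapping matches within 20 bases of the start site, and 57 of their first 58 printed bases were identical. For Oas1a, 15 of the 16 marked bases and 19 of the 60 printed ones lie inside the annotated gene, whose outermost start is upstream of the start site used, so its matches are before that start site but not before the gene. In the other printed windows no base lies inside the gene. The matches of Ifit1 began 104 and 85 bases before its start, that of Ifi214 79 and that of Slfn9 45 bases before.

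Over the whole list of 61 type I interferon-stimulated genes, 60 had a positive log2 difference, against 50.4% of all genes tested. The median was 1.22, and 9 were called higher and 0 lower, against 0.117% and 0.0224% of all genes. The list was chosen with earlier results of these data known, so its counts are a description and not independent support. In 44 all reconstituted libraries lay above all knockout ones, against 15.6% of all genes. Members close below the threshold were the interferon-induced GTPase gene Mx2 (1.91, adjusted p = 0.0596), the RNA-activated kinase gene Eif2ak2 (0.95, adjusted p = 0.0601), Ifit3 (3.02, adjusted p = 0.0644), Ifit1bl1 (2.74, adjusted p = 0.0644), Ifi27l2a (2.62, adjusted p = 0.0663) and Ifi44 (2.93, adjusted p = 0.0721). Others had larger spread: the ubiquitin-like modifier Isg15 (1.81 ± 0.51, SE) and its protease Usp18 (1.65 ± 0.35, SE) had groups that did not overlap, while those of viperin (Rsad2, 1.35 ± 0.57, SE) overlapped. The RNA editing enzyme gene Adar was at 67.8, 56.5 and 70.7 CPM against 116, 92.5 and 138 CPM (0.83, adjusted p = 0.0842).

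Within each group the interferon-stimulated genes moved together by library. Reconstituted replicate 3 was the highest of the 6 libraries for 57 of the 61 genes, and knockout replicate 2 the lowest for 52. The mean log2 CPM over the list was 4.20, 3.06 and 3.55 in knockout and 5.07, 4.64 and 5.65 in reconstituted controls, so the groups did not overlap. Leaving out one control library at a time gave medians of 0.95 (without reconstituted replicate 3) to 1.55 (without knockout replicate 1).

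**Figure D2:**
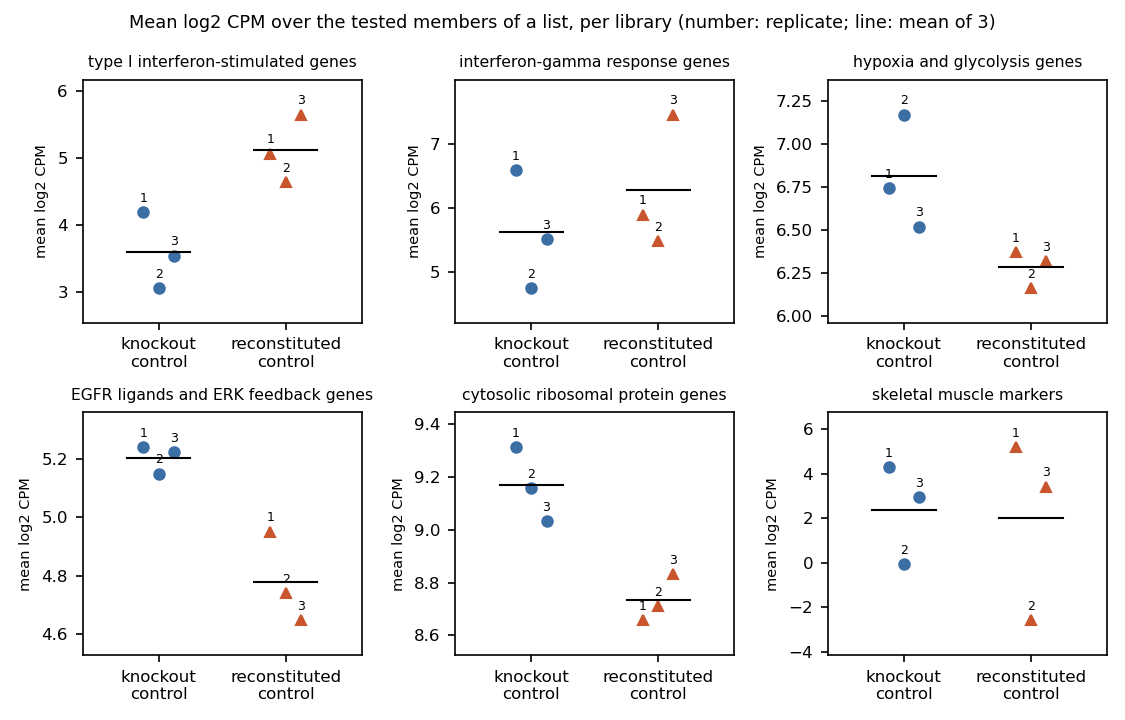
Mean log2 CPM over the tested members of 6 lists, 1 point per control library, numbered by replicate, with the mean of 3 as a line; the vertical axes differ between panels and do not start at 0. The interferon-stimulated, hypoxia, EGFR and ERK, and ribosomal protein lists have groups that do not overlap, while interferon-gamma response genes and muscle markers overlap.

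The genes of the sensing pathway itself lay higher by smaller amounts. Of 24 members, Mavs included, 20 had positive log2 differences, the median was 0.35, and 12 had non-overlapping groups with all reconstituted libraries higher. None was called by edgeR (13 at an unadjusted p below 0.05) or limma-voom, and 8 were called by DESeq2. Over all genes tested 18.7% had an unadjusted p below 0.05 in edgeR, DESeq2 called 4.62% and limma-voom 0.0839%. Groups did not overlap for 15.6% in the higher and 15.5% in the lower direction. The counts of every list stand against these shares. The RNA sensor gene Ddx58 was at 50.3, 34.9 and 42.0 CPM in knockout and 88.8, 67.7 and 106 CPM in reconstituted controls (log2 difference 1.05 ± 0.19, SE, adjusted p = 0.0683). Ifih1 was at 10.4, 6.64 and 8.71 CPM against 21.8, 15.6 and 28.2 CPM (1.35 ± 0.25, SE, adjusted p = 0.0683). The groups of both sensors were separate. The regulatory sensor gene Dhx58 (1.07) had overlapping groups. The interferon-inducible factor gene Irf7 was at 34.5, 10.7 and 16.7 CPM against 66.8, 49.2 and 109 CPM (1.86, adjusted p = 0.136), whereas Irf3, which is made without induction, had -0.13 ± 0.13 (SE). Values of 0.25 for the kinase gene Tbk1, 0.54 for the DNA sensor gene Cgas and 0.44 for the RIG-I ubiquitin ligase gene Trim25 came with non-overlapping groups and did not pass either.

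Among 18 interferon receptor and transcription factor genes, 13 were positive and 6 had all reconstituted libraries higher (median 0.19). EdgeR called none of them, with 3 at an unadjusted p below 0.05, a smaller share than the 18.7% of all genes. Limma-voom called 0 and DESeq2 2. The factor genes Stat2 and Irf9 act downstream of the type I interferon receptor. Stat2 was at 60.9, 38.8 and 47.8 CPM against 96.2, 85.8 and 167 CPM (1.24) and Irf9 at 39.1, 27.9 and 31.8 CPM against 53.7, 45.9 and 68.3 CPM (0.76), without overlap.

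Interferon-gamma response genes, such as the guanylate-binding protein and immunity-related GTPase genes, did not separate the groups. Of 25 members 21 had positive values and the median was 0.86, yet 0 had non-overlapping groups, and edgeR, DESeq2 and limma-voom each called 0 (2 at an unadjusted p below 0.05 in edgeR). Gbp3 shows the pattern, at 275, 63.6 and 134 CPM in knockout and 272, 189 and 709 CPM in reconstituted controls (1.31 ± 0.61, SE). Reconstituted replicate 3 was highest for 21 of the 25 and knockout replicate 2 lowest for 20. Without reconstituted replicate 3 the median was -0.01 with 12 positive members. It was 0.50 without knockout replicate 2 and 1.5 without knockout replicate 1. The chemokine gene Cxcl10, in this list, had 0.91 ± 0.77 (SE). The ISRE core was in 11 of the 15 promoters of this list that were available (73.3%).

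MHC class I genes were highest in the same reconstituted library. In the MHC class I list 19 of 21 were positive, the median was 0.21, and 1 member, the chaperone gene Calr, had non-overlapping groups. The count called was 0 in edgeR (1 at an unadjusted p below 0.05), DESeq2 and limma-voom. Reconstituted replicate 3 was the highest library for 18 of 21, and without it the median was -0.22. The light chain gene B2m was at 1450, 674 and 831 CPM against 1086, 1106 and 1837 CPM (0.45), and H2-K1 had a log2 difference of 0.10 ± 0.34 (SE). MHC class II genes had another library order, with knockout replicate 1 highest for 6 of 10 and reconstituted replicate 1 lowest for 7. Of the 10, 3 were positive (median -0.16, and 0.03 without knockout replicate 1), with 0 called in edgeR (0 at an unadjusted p below 0.05) and in both other tools.

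**Figure D3:**
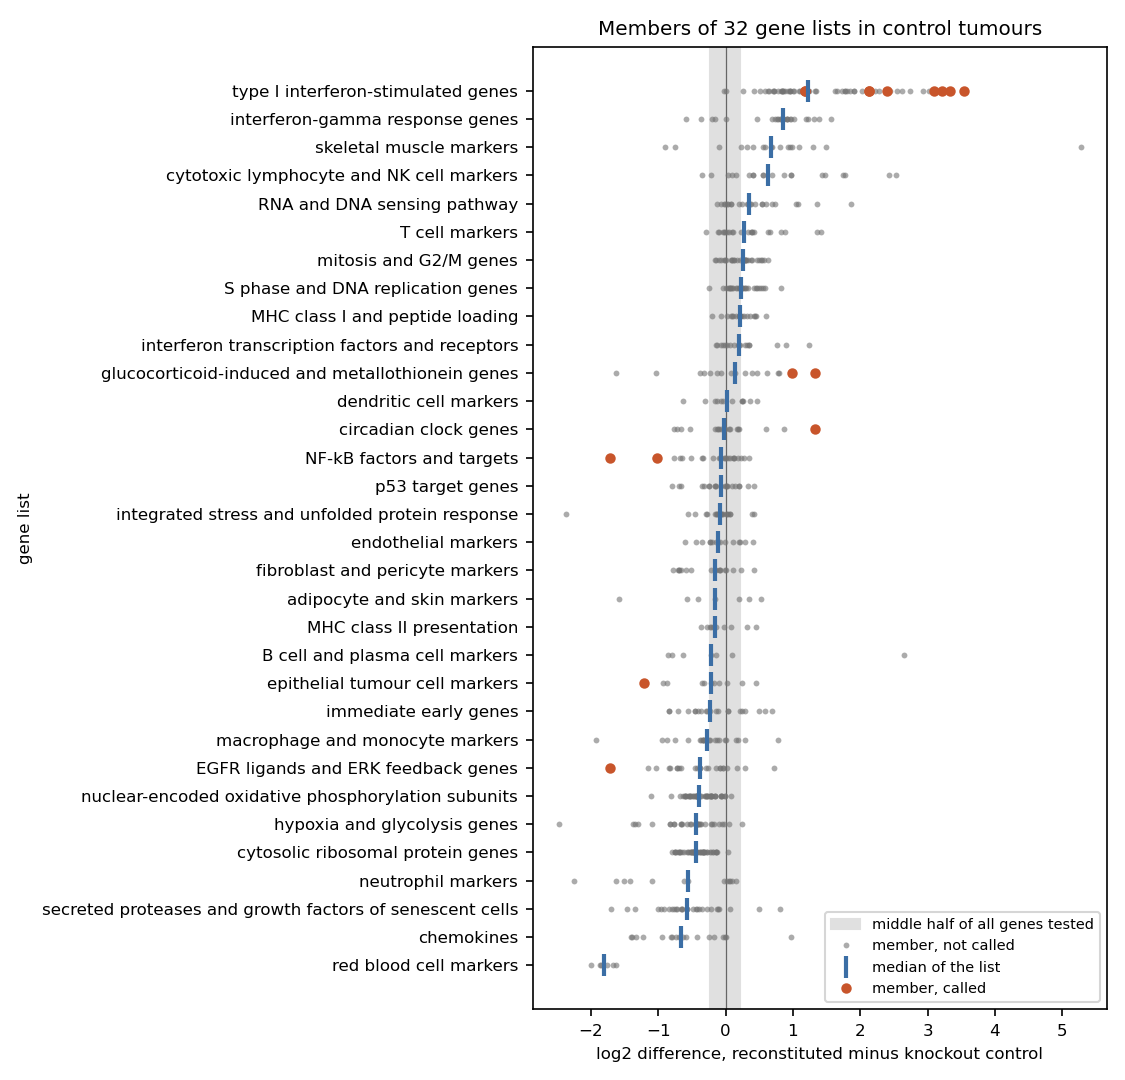
Log2 difference of each tested member of 32 gene lists in control tumours (small grey points, larger orange points for called genes), with the list's median as a blue bar and the middle 50% of all genes tested, -0.23 to 0.21, as a grey band. The interferon-stimulated list has the highest median (1.22) and red blood cell markers the lowest (-1.81).

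Of the 12 genes that rose outside the interferon-stimulated list, Gm20559 is described above, and several others lie in families tied to interferon or lymphocytes. Ifi214, of the family of interferon-inducible DNA-binding proteins with a pyrin domain, was at 0.209, 0.152 and 0.261 CPM in knockout and 1.26, 1.17 and 1.22 CPM in reconstituted controls (2.55 ± 0.30, SE, adjusted p = 0.0137). Hsh2d, an adaptor of lymphocyte signalling, was at 0.40, 0.354 and 0.317 CPM against 1.54, 1.29 and 2.53 CPM (2.32). Both are low, but the groups did not overlap. The predicted genes Gm7582 (2.15), Gm7609 (2.67) and LOC101055758 (2.41) start at 85026349, 85199592 and 85326832 on chromosome 1 (GRCm38.p6). LOC101055758 overlaps 4 annotated genes and Gm7609 overlaps 1, so their reads may not be separable. Ptpn6, the phosphatase SHP-1 of blood cells, had a small difference with little spread, at 63.7, 61.8 and 71.2 CPM against 93.1, 91.7 and 104 CPM (0.55 ± 0.08, SE, adjusted p = 0.0356).

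Per1 and Tsc22d3 rose and both are known targets of glucocorticoids. Per1, a repressor of the circadian clock, was at 40.3, 44.4 and 63.7 CPM in knockout and 108, 134 and 131 CPM in reconstituted controls (1.33 ± 0.17, SE, adjusted p = 0.0137). Tsc22d3, the glucocorticoid-induced leucine zipper gene, was at 158, 177 and 219 CPM against 293, 389 and 414 CPM (0.99 ± 0.14, SE, adjusted p = 0.0356). In both, each reconstituted library exceeded each knockout library. Of 17 glucocorticoid-induced and metallothionein genes 10 were positive, these 2 were called, and the median was 0.15. In edgeR 8 were at an unadjusted p below 0.05 (18.7% of all genes). The kinase gene Sgk1 (0.46, adjusted p = 0.132) and the chaperone gene Fkbp5 (0.40, adjusted p = 0.232) had all reconstituted libraries higher, whereas the metallothionein gene Mt2 had -1.63 with overlap. The median over the list was -0.05 without knockout replicate 1 and 0.30 without knockout replicate 2.

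Per1 was the 1 called member of 19 circadian clock genes, of which 8 were positive (median -0.02). In edgeR 4 were at an unadjusted p below 0.05 (18.7% of all genes). Per2 was at 7.22, 11.2 and 10.9 CPM against 20.0, 13.7 and 19.9 CPM (0.87, adjusted p = 0.155), Per3 had 0.05 ± 0.18 (SE), and Bhlhe40, which is also a hypoxia gene, had -0.66 with all reconstituted libraries lower. The time of day of harvest is not stated in the labels. The remaining 3 genes that rose were Map2, a microtubule-associated protein (10.1, 6.73 and 11.2 CPM against 21.8, 19.7 and 23.5 CPM), Odf3l1 (1.33, 1.5 and 1.27 CPM against 3.07, 2.79 and 3.42 CPM) and Gm45927 (7.71, 9.28 and 7.53 CPM against 28.6, 19.5 and 21.0 CPM). Map2 overlaps 4 annotated genes and Gm45927 overlaps Clk2, Scamp3 and Gm16069.

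Ier3, an early response gene driven by ERK and NF-kB signalling, had the largest fall among the 4 genes called lower. It was at 166, 167 and 108 CPM in knockout and 45.7, 44.6 and 43.9 CPM in reconstituted controls, and the log2 difference was -1.71 ± 0.21 (SE, adjusted p = 0.0137). The reconstituted libraries lay within 2 CPM of each other, and the knockout replicate 3 was the lowest of its group. Prss22, a serine protease of epithelia, was at 36.7, 29.3 and 28.6 CPM against 12.7, 13.9 and 14.0 CPM (-1.22 ± 0.19, SE, adjusted p = 0.0466). Csf3, the granulocyte colony-stimulating factor gene, fell from 11.2, 14.1 and 12 to 7.02, 6.30 and 5.01 CPM (-1.02 ± 0.17, SE, adjusted p = 0.0482), and overlaps the annotated gene Gm38985. Tgif1, a homeobox repressor of TGF-beta signalling, fell from 125, 114 and 121 to 85.0, 84.5 and 69.4 CPM (-0.59 ± 0.09, SE, adjusted p = 0.0386).

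Ligands of the EGF receptor and feedback inhibitors of ERK signalling, the list with Ier3, were mostly lower with MAVS. Of 24 members 20 had negative log2 differences, against 49.6% of all genes, the median was -0.38, and 12 had all reconstituted libraries below all knockout ones. Ier3 was the 1 called, and 12 were at an unadjusted p below 0.05 in edgeR (18.7% of all genes). The ERK phosphatase gene Dusp6 was at 219, 153 and 169 CPM in knockout and 115, 109 and 111 CPM in reconstituted controls (-0.69 ± 0.12, SE, adjusted p = 0.0643). The feedback inhibitor gene Spry1 was at 42.1, 36.2 and 45.4 CPM against 24.6, 25.2 and 19.7 CPM (-0.83, adjusted p = 0.0644) and its relative Spry2 at 23, 22.8 and 18.0 CPM against 15.1, 11.3 and 12 CPM (-0.73, adjusted p = 0.0861). Among the ligands, Ereg (-0.73, adjusted p = 0.0861), Hbegf (-1.16, adjusted p = 0.119) and Areg (-0.83, adjusted p = 0.152) had non-overlapping groups, with Hbegf at 231, 188 and 190 CPM against 126, 87.9 and 58.7 CPM. Reconstituted replicate 3 was the lowest library for 15 of the 24, and over the fits without one control library the median ran from -0.47 to -0.28.

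NF-kB factors and targets, the other arm downstream of MAVS, did not show a common direction. Of 25 members 9 were positive, 2 (Ier3 and Csf3) were called lower, and the median was -0.07. In edgeR 8 were at an unadjusted p below 0.05 (18.7% of all genes). All reconstituted libraries were higher in 3 members and lower in 6. The feedback inhibitor gene Tnfaip3 was at 87.5, 70.7 and 74.8 CPM against 53, 46.9 and 48.3 CPM (-0.65, adjusted p = 0.160), while Nfkbia had -0.19 with overlapping groups and the subunit gene Rel 0.34 with all reconstituted libraries higher. Of 18 chemokine genes 16 had negative differences (median -0.66), with 0 called by edgeR (5 at an unadjusted p below 0.05) or limma-voom and 2 by DESeq2. The chemokine genes Cxcl9, Cxcl10 and Cxcl11 were placed in the interferon-gamma list and are not among these 18, so the list does not cover all chemokines. The neutrophil attractant genes Cxcl1 (71.6, 77.2 and 72.7 against 47.3, 45.7 and 33.1 CPM, -0.81) and Cxcl2 (5.16, 10.4 and 4.12 against 2.04, 2.91 and 2.53 CPM, -1.39) had groups that did not overlap. Ccl5, an interferon-inducible lymphocyte attractant, had 0.97 ± 0.45 (SE). Knockout replicate 2 was the highest library for 11 of the 18, and without it the chemokine median was -0.25.

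The list of secreted proteases and growth factors of senescent cells had 26 negative members of 29 and a median of -0.58, with 13 non-overlapping and lower. Here too 0 were called by edgeR (15 at an unadjusted p below 0.05) or limma-voom, against 9 by DESeq2. The plasminogen activator gene Plau was at 209, 209 and 145 CPM against 89.3, 109 and 99.7 CPM (-0.92, adjusted p = 0.124), and the binding protein gene Igfbp4 at 1839, 1801 and 1797 CPM against 1290, 1347 and 1393 CPM (-0.43, adjusted p = 0.117). Areg and Ereg are in this list and in that of EGF receptor ligands, so the lists are not separate results. The median stayed between -0.74 and -0.47 without any single control library.

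Hypoxia and glycolysis genes were lower in reconstituted controls. Of 33 tested members 31 had negative log2 differences, the median was -0.44, and 20 had non-overlapping groups in that direction. None was called by edgeR, with 21 at an unadjusted p below 0.05 (18.7% of all genes), or by limma-voom, and 10 were called by DESeq2 (4.62% of all genes). Egln3, a prolyl hydroxylase induced by hypoxia, was at 11.1, 31.1 and 7.48 CPM in knockout and 3.43, 2.98 and 2.51 CPM in reconstituted controls (-2.48 ± 0.49, SE, adjusted p = 0.0861). The glucose transporter gene Slc2a1 was at 171, 200 and 125 CPM against 91.5, 94.3 and 94.4 CPM (-0.82, adjusted p = 0.0893), and Ndufa4l2, also induced by hypoxia and outside the list, at 17.9, 51.6 and 9.32 CPM against 6.62, 3.45 and 3.82 CPM (-2.51). Knockout replicate 2 was the highest library for 28 of the 33, and its part in the difference was measured by leaving it out, which gave a median of -0.34 with 5 positive members. The hypoxia response core ACGTG was in 20 of 30 promoters of the list (66.7%), against 27.7% of all. Its share was also high in 2 lists with medians near 0. It was in 62.5% of circadian clock promoters (median log2 difference -0.02) and 60% of glucocorticoid-induced and metallothionein promoters (0.15).

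Ribosomal protein and oxidative phosphorylation genes were lower in nearly every member, by small amounts. Of 51 cytosolic ribosomal protein genes 50 had negative differences (median -0.45) and 48 had all reconstituted libraries below all knockout ones. Of 50 nuclear-encoded respiratory chain genes 49 were negative (median -0.40) and 35 non-overlapping. None passed in edgeR, although 36 and 23 had an unadjusted p below 0.05. Limma-voom called 0 as well, and DESeq2 13 and 6. Rps14 was at 477, 400 and 359 CPM against 204, 220 and 287 CPM (-0.80, adjusted p = 0.170), and the ATP synthase subunit gene Atp5e at 77.7, 44.1 and 47.4 CPM against 19.4, 22.4 and 36.8 CPM (-1.10, adjusted p = 0.170). Knockout replicate 1 was highest for 47 of the ribosomal and 41 of the respiratory chain genes, and reconstituted replicate 1 lowest for 37 and 38. Without knockout replicate 1 the medians were -0.36 and -0.28.

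Cell cycle genes lay slightly higher with MAVS. Of 30 mitosis genes 24 were positive (median 0.26) and 10 had all reconstituted libraries higher. Of 30 S phase genes 28 were positive (median 0.23) and 11 were higher without overlap. EdgeR called 0 in both (13 at an unadjusted p below 0.05 in each), as did limma-voom, and DESeq2 called 3 and 6. The proliferation marker gene Mki67 was at 204, 200 and 205 CPM against 387, 296 and 260 CPM (0.63, adjusted p = 0.155), and the replication checkpoint gene Clspn at 15.9, 14.4 and 14.3 CPM against 30.3, 27.0 and 21.3 CPM (0.82, adjusted p = 0.122). Ttk, the gene of MPS1, had 0.25 ± 0.13 (SE) with overlapping groups. Reconstituted replicate 1 was highest for 25 mitosis and 20 S phase genes, and without it the medians were 0.12 and 0.16.

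Medians of the remaining pathway lists were -0.24 for 21 immediate early genes, -0.08 for 23 integrated stress and unfolded protein response genes and -0.07 for 21 p53 target genes. In each, 0 were called by edgeR (7, 2 and 5 at an unadjusted p below 0.05, 18.7% of all genes) and limma-voom. DESeq2 called 4, 2 and 2 (4.62% of all genes). All reconstituted libraries were lower in 8, 1 and 8 members (15.5% of all genes) and higher in 2, 1 and 2 (15.6%). The early genes Jun (-0.45) and Ier2 (-0.84), the stress factor gene Atf4 (-0.55) and the p53 target gene Plk2 (-0.70, adjusted p = 0.0735) had all reconstituted libraries lower.

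Among markers of the cells that a tumour piece can hold, those of cytotoxic lymphocytes and NK cells lay toward the reconstituted group. Of 20 tested markers 18 were positive (median 0.63), and their summed level was 87.2 to 125 CPM in knockout and 161 to 188 CPM in reconstituted controls, without overlap. Their mean log2 CPM did overlap, at 1.40, 0.26 and 0.58 in knockout and 1.45, 1.35 and 2.07 in reconstituted controls. All reconstituted libraries were higher in 6 members and lower in 1. EdgeR called 0, with 6 at an unadjusted p below 0.05, limma-voom 1 and DESeq2 4. Perforin (Prf1) was at 3.90, 0.860 and 1.77 CPM against 13.3, 13.5 and 10.8 CPM (2.53 ± 0.46, SE, adjusted p = 0.0669). Granzyme B (Gzmb) was at 16.1, 5.04 and 8.76 CPM against 26.7, 34.7 and 41.4 CPM (1.78 ± 0.38, SE, adjusted p = 0.105), and Gzmd, of the same protease family and outside the list, had 2.67 (adjusted p = 0.0918). The NK cell receptor gene Ncr1 had 1.47 with all reconstituted libraries higher, at 2.87 CPM or less. The list's median was 0.30 without reconstituted replicate 3 and 1.09 without knockout replicate 1. T cell markers overlapped in summed level (202 to 247 CPM against 219 to 238 CPM), with 0 called by edgeR (1 at an unadjusted p below 0.05), DESeq2 or limma-voom. Their median was 0.27, and -0.02 without reconstituted replicate 3, and Cd8a had 1.42 ± 0.78 (SE) at less than 1 CPM in every control library.

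Markers of myeloid and stromal cells leaned lower or showed no shift. Macrophage and monocyte markers had 17 negative of 22 (median -0.28, summed level 3415 to 4612 CPM in knockout and 2857 to 3476 CPM in reconstituted controls). Arginase 1 (Arg1), a marker of alternatively activated macrophages, was at 298, 525 and 158 CPM against 99.2, 75.4 and 84.1 CPM (-1.92, adjusted p = 0.141), while the sialoadhesin gene Siglec1, which interferon induces, had 0.78 with all reconstituted libraries higher. The eosinophil attractant gene Ccl24 was at 87.2, 175 and 81.3 CPM against 9.63, 15.2 and 37.8 CPM (-2.45), and the alternative activation gene Retnla at 8.82, 33.0 and 3.06 CPM against 2.23, 0.380 and 1.98 CPM (-3.30). For Arg1, Ccl24 and Retnla knockout replicate 2 was the highest library. Medians were -0.55 for 13 neutrophil markers (-0.01 without reconstituted replicate 2 and -0.15 without knockout replicate 1), 0.03 for 12 dendritic cell, -0.12 for 15 endothelial, -0.15 for 18 fibroblast and pericyte, -0.22 for 7 B and plasma cell and -0.16 for 7 adipocyte and skin markers. In these lists edgeR and limma-voom called 0 members, and DESeq2 called 3 macrophage and 1 neutrophil marker. At an unadjusted p below 0.05 in edgeR were 4 macrophage, 4 neutrophil, 0 dendritic cell, 2 endothelial, 0 fibroblast, 1 B cell and 1 adipocyte and skin marker. Apart from the neutrophil list, these shares lie below the 18.7% of all genes.

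Epithelial markers of the cancer cells were present in all controls, with a summed level of 7620 to 8032 CPM in knockout and 6508 to 6946 CPM in reconstituted libraries. Of 11 tested markers 8 were negative (median -0.22), and 1, Prss22, was called lower. In edgeR 4 were at an unadjusted p below 0.05 (18.7% of all genes). All reconstituted libraries were lower in 6 members and higher in 1. Besides Prss22, the tight junction gene Cldn4 (-0.88, adjusted p = 0.0644) and Epcam (-0.32, adjusted p = 0.179) had all reconstituted libraries lower. The lung lineage markers Nkx2-1 and Sftpc and the claudin gene Cldn7 had 0 counts in every library. Esrp1 and Ovol2, also in the list, were too low to be tested. Esrp1 had 0, 0 and 6 counts in knockout and 10, 0 and 0 in reconstituted controls. Ovol2 had 7, 2 and 0 against 0, 0 and 3. The epithelial label therefore rests on keratins, Epcam and junction genes and not on all markers of the list, while the lung origin is not visible in these markers.

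Blood and muscle in the tumour piece differed between libraries. Red blood cell markers had a summed level of 49.4 to 238 CPM in knockout and 32.5 to 53.6 CPM in reconstituted controls, and all 6 tested members were negative (median -1.81) with knockout replicate 3 highest in each. EdgeR and limma-voom called 0 of them, with 5 at an unadjusted p below 0.05 in edgeR, and DESeq2 called 1. Skeletal muscle markers summed to 583, 30.4 and 245 CPM in knockout and 1010, 8.82 and 330 CPM in reconstituted controls. Their median log2 difference was 0.68, yet it was -0.75 without reconstituted replicate 1 and -0.34 in limma-voom, and the mean log2 CPM over the list was lower in reconstituted controls. The highest and the lowest library were both reconstituted controls. The part of muscle RNA, and of the level of hypoxia genes in knockout replicate 2, in the called genes was not tested beyond the fits without those libraries.

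Under the MPS1 inhibitor the same contrast, in 6 other libraries, called 93 genes higher (0.52%) and 23 lower (0.129%). Of the 21 genes that rose in controls 15 were also called higher there, and of the 4 that fell 1, Csf3 (-0.91), was also called lower. The interaction tested whether the MAVS difference differed between treatments, and edgeR called 0 genes (0%), with 4421 at an unadjusted p below 0.05 (24.7%), limma-voom 0 and DESeq2 1365. Without reconstituted inhibitor replicate 3 edgeR called 4005 genes, and without reconstituted control replicate 3 it called 1, so the count of 0 rested on these libraries. The statements that follow are side-by-side values and do not show that the difference differed between treatments.

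Some genes called in controls had values of similar size under the inhibitor and others did not. Samd9l had 2.13 in controls and 1.61 under the inhibitor, Gm20559 2.05 and 2.00, Tsc22d3 0.99 and 0.86, Ptpn6 0.55 and 0.46, and Csf3 -1.02 and -0.91. Ifit1 (3.10 and 3.91), Ifit3b (3.54 and 4.44) and Oas1g (3.22 and 3.98) had larger values under the inhibitor, with unadjusted interaction p of 0.251, 0.247 and 0.149. Ier3 had -1.71 in controls and -0.13 under the inhibitor (interaction unadjusted p = 0.000202, adjusted p = 0.144), and Prss22 -1.22 and 0.17 (unadjusted p = 0.000316, adjusted p = 0.144). Gm45927 had 1.49 and -0.84 (unadjusted p = 8.21e-06, adjusted p = 0.144) and Per1 1.33 and 0.73 (unadjusted p = 0.0246, adjusted p = 0.160). These 4 were the called genes with an interaction p below 0.05 before adjustment, and none passed after it.

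**Figure D4:**
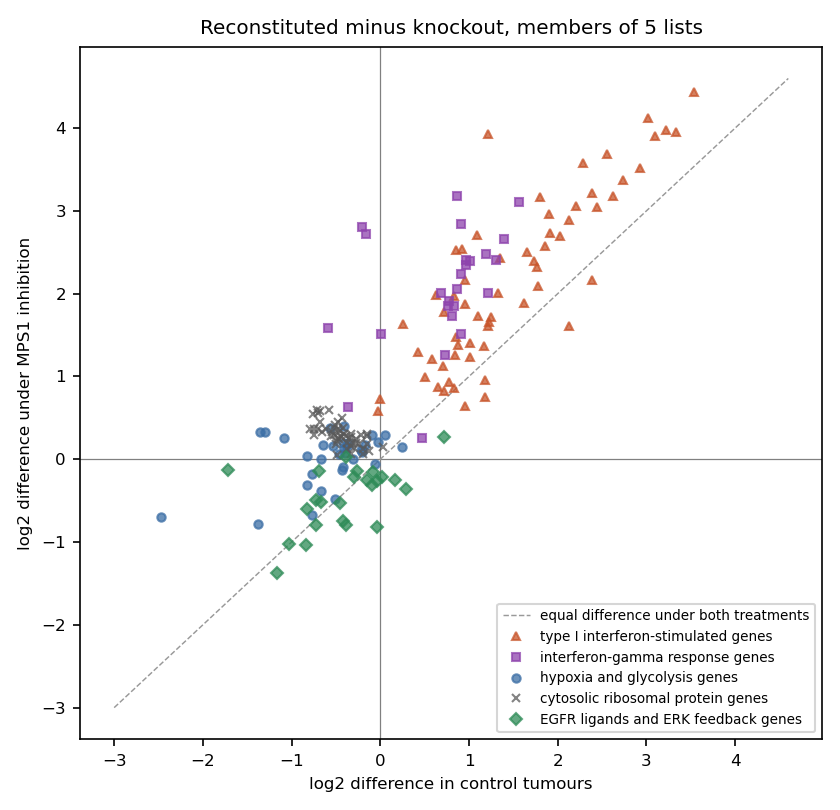
Log2 difference between reconstituted and knockout tumours in controls (horizontal) and under the MPS1 inhibitor (vertical) for each member of 5 lists, with equal values on the dashed line. Interferon-stimulated and interferon-gamma genes lie mostly above the line, hypoxia and ribosomal protein genes lie left of 0 and near or above 0 on the vertical axis, and EGFR and ERK genes lie lower under both treatments.

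The lists also differed in their values under the inhibitor. The interferon-stimulated list had a median of 1.22 in controls and 2.01 under the inhibitor, with 8 of 61 members at an interaction p below 0.05 before adjustment, and interferon-gamma response genes 0.86 and 2.06 with 4 of 25. The EGF receptor and ERK list had -0.38 and -0.33, with 4 of 24. Hypoxia genes had -0.44 in controls and 0.11 under the inhibitor with 16 of 33, ribosomal protein genes -0.45 and 0.28 with 44 of 51, and respiratory chain genes -0.40 and 0.32 with 38 of 50. Under the inhibitor, ribosomal protein genes summed to 27320, 32940 and 34320 CPM in knockout and 46870, 37800 and 28620 CPM in reconstituted libraries. Respiratory chain genes summed to 5393, 6034 and 6404 CPM against 8131, 6811 and 5537 CPM. In both lists reconstituted inhibitor replicate 3 lay inside the knockout range. Chemokines had -0.66 and 0.42 with 8 of 18, and mitosis genes 0.26 and -0.08 with 12 of 30. These counts, from edgeR, stand against 24.7% of all genes, and members of a list vary together between libraries. No member passed after adjustment in edgeR with all 12 libraries or in limma-voom, whereas DESeq2 called 7.63% of all genes.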

How the data were processed

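RNA sequencing counts per gene were deposited by the authors as whole numbers, without normalization, for 12 libraries. The submitters' processing notes list Trimmomatic, HISAT2, StringTie and the build GRCm38 (mm10), with no versions or roles. Neither the role of each tool in counting nor the use of strand is given in the sources used here. Libraries came from a stranded mRNA kit (TruSeq), per the labels' protocols. Samples were grouped by their labels and columns by name.

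Genes with low counts were removed with filterByExpr, totals were scaled by TMM, and 1 model with 4 groups was fitted with edgeR 4.0.16 (glmQLFit, glmQLFTest, R 4.3.3). P-values were adjusted over all genes tested by the Benjamini-Hochberg method, and a gene with an adjusted p below 0.05 was called. CPM are counts per 1000000 TMM-scaled total counts. The script was tested on simulated data. Alternatives were DESeq2 1.42.0, limma-voom (limma 3.58.1), other size factors, no filter, robust dispersion, a replicate block, the control libraries alone and each library left out.

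Named were every called gene, the 8 largest uncalled differences in each direction, up to 6 genes per list and fixed pathway genes. Eif2ak2, Fkbp5, Nfkbia and Per3 were named in addition, after their values were seen. The members, the 32 gene lists and the rules were chosen with earlier results of these data known. Lists are described by counts and medians, without a test. Positions are those of RefSeq on GRCm38.p6, where 45679 of 45777 gene IDs matched.

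Totals of 52983715 to 69108411 counts per control library leave low genes with the widest error. Medians and counts over lists rest on genes that vary together, and 3 libraries per group limit the precision. No library pair of a group was near-identical: the chi-square per gene was at least 25.8.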

Additional observations from a re-analysis of the deposited data

How the results depend on the processing

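With 25 genes called in controls, other size factors (24), no filter (28) and robust dispersion (20) gave counts within 1.5 times. DESeq2 called 827 (353 higher and 474 lower), of which 21 were shared (4514 adjusted p undefined), and 1365 genes for the interaction. Limma-voom called 15 (11 higher and 4 lower, 13 shared). The 6 control libraries alone gave 10 calls, 5 higher and 5 lower, of which 6 were shared. The split into 21 higher and 4 lower genes thus did not hold in every fit. Leaving out 1 library gave 0 to 80 calls in controls and 0 to 4005 for the interaction. The lowest count in controls came without knockout control replicate 2, the highest of both without reconstituted inhibitor replicate 3. The cause was not tested. All 25 called genes kept their direction in every fit run. Their groups did not overlap, so leaving out a library could hardly have reversed a direction.

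The replicate block gave 15 calls (13 shared), and the block with the 6 control libraries alone 1. Correlations of same-numbered deviations between the control groups were 0.03, 0.29 and -0.04. Of 3 reconstituted libraries, 1 correlated best with its own number. The labels do not say whether the numbers pair the samples, and so few correlations cannot decide it.

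Of 4556 values of single genes under alternatives, 4198 kept direction and were counted as unchanged, 226 lost and 111 gained the call, and 21 changed sign. The unchanged values kept their side of the threshold or had an undefined adjusted p, so their count overstates how often a call was kept. Limma-voom gave -0.33 for Myh4 and -0.33 for Actn3. With 1 library left out, the log2 differences that changed sign ran from -0.29 to 0.52 for H2-K1, -0.0348 to 0.94 for Nlrc5, -0.14 to 0.71 for H2-T23, -0.14 to 0.53 for H2-Ob, -0.50 to 0.0149 for H2-Eb1, -3.03 to 0.46 for Mzb1, -0.52 to 0.0621 for Ighm, -1.20 to 0.0831 for Cd163, -1.22 to 5.86 for Myh4, -0.57 to 2.16 for Myoz1, -0.45 to 2.87 for Ckm, -1.12 to 2.51 for Atp2a1, -1.84 to 0.30 for Mb, -0.86 to 1.87 for Actn3, -0.10 to 0.44 for Trp63 and -0.44 to 0.0199 for Krt14. Trp63 was at -0.02 without knockout control replicate 2, and H2-K1 at -0.10 and -0.06 without knockout control replicates 2 and 3. Medians of lists close to 0 could change sign without 1 library, for example circadian clock genes (0.15 without knockout control replicate 2).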

Other observations

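Several of the largest differences that did not pass the threshold lie in genes outside the lists or were carried by 1 library. Rsc1a1 was at 0.781, 0.337 and 10.1 CPM in knockout and 0.052, 0.169 and 0.224 CPM in reconstituted controls (log2 difference -4.62 ± 1.11, SE, adjusted p = 0.138), with knockout replicate 3 far above the rest. Il13ra2, the decoy receptor for interleukin 13, was at 6.49, 19.8 and 3.52 CPM against 0.883, 2.22 and 3.01 CPM (-2.29 ± 0.78, SE), again with knockout replicate 2 highest, as for Arg1, Ccl24 and Retnla.

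Gm7030, a gene of the MHC region on chromosome 17 (36127609 to 36129425, GRCm38.p6), was singled out after its values were seen. It had 56 to 99 counts in the knockout control libraries (1.89, 1.10 and 1.04 CPM) and 0 in the 3 reconstituted control and all 6 inhibitor libraries, and its adjusted p of 0.0601 (edgeR) did not pass.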
